A study of Oryza sativa with 6 samples.

Results

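The cellulose synthase superfamily of rice was examined in young leaves of plants in which the sirtuin gene OsSRT1 was targeted by RNA interference. Its members are the cellulose synthase genes, CESA, and the cellulose synthase-like genes, CSL. A gene was a member where its symbol or a synonym in the RefSeq gene table, without a leading Os, was CESA with a number or CSL with a letter from A to H and a number. Of 35 such genes, 9 CESA and 26 CSL, 29 had a named probe set on the array, out of 17905 genes with one, and these 29 genes had 37 of the 57381 probe sets. All 9 CESA genes had 1 or 2 probe sets each. The 6 genes with no named probe set, CSLA3, CSLA4, CSLE6, CSLF3, CSLF4 and CSLF9, were not analysed here.

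The arrays compared 3 control samples of the wild-type indica variety Minghui63 with 3 samples of plants of that variety carrying a hairpin construct made from 412 bp of the untranslated 3' end of OsSRT1. In their titles the RNAi samples are transgenic line LM1, LM2 and LM3, taken here as replicates 1 to 3, and whether each number is a line of its own is not said. RNA came from plants of 11 days, taken while the RNAi plants had no lesions yet, and growth on an MS-based medium in long days is recorded for 1 control sample. The samples are described as biological repeats, and the sources used here do not name the promoter that drives the hairpin.

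Cellulose is spun out at the plasma membrane by complexes that contain several different CESA proteins and use UDP-glucose. In rice CESA1, CESA3 and CESA8 are assigned to the primary wall of growing cells, and CESA4, CESA7 and CESA9 to the thick secondary wall of xylem and fibres. Rice plants that lack any of the latter group have brittle culms. The CSL proteins are related enzymes grouped by letter: CSLA proteins make mannan and glucomannan, as known from guar and Arabidopsis, CSLC proteins the glucan backbone of xyloglucan, as known from nasturtium and Arabidopsis, and CSLF and CSLH proteins the mixed-linkage glucan typical of grass walls. CSLD proteins are best known from tip-growing cells, such as root hairs. No role is stated here for CSLE.

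Values below are scaled signals, each array having been multiplied to a common trimmed mean of 500, and log2 ratios (log2 fold changes) are RNAi minus control after 16 was added to each signal, which understates changes of dim probe sets. Signals of different probe sets are not comparable as levels. Before scaling, the trimmed mean was 500.1 in control replicate 3 and 99.86 to 117.8 on the other arrays. The instrument records give all control arrays 1 hybridization date entry and all RNAi arrays another, so this batch and the group cannot be told apart. No probe set is named OsSRT1, so the knockdown itself was not analysed here. The leaf label was met by the defining genes of photosynthesis: the summed signal of 4 leaf markers (RBCS, RBCS1, rca and CAB2R) was 96842 to 116736 in the controls and 91112 to 106024 in the RNAi arrays, with RBCS1 near the floor on all arrays.

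The clearest differences among the cellulose synthases were higher signals for CESA3, of the primary wall group, and CESA4, of the secondary wall group, in the RNAi leaves. The first probe set of CESA3 (Os.10178.1.S1_a_at) and 1 of the CESA4 probe sets (Os.18724.1.S1_at) passed limma's test at an adjusted p of 0.05. These were 2 of the 26 member probe sets that were bright enough to be tested, both higher, and none was lower. Over all 28597 tested probe sets, 2.1% passed in either direction, 1.09% as higher and 1.01% as lower. In whole leaves a higher signal from more cells of a type and from more RNA per cell cannot be told apart.

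CESA4, the secondary wall isoform with the largest difference, had signals of 193, 142 and 145 in control replicates 1, 2 and 3. In RNAi replicates 1, 2 and 3 the same probe set had 280, 606 and 700. All RNAi values lay above all control values, with replicate 1 much the lowest of the RNAi arrays. The means were 160 ± 28.5 (SD, n = 3) and 529 ± 220, a log2 ratio of 1.54 ± 0.32 (SE; limma adjusted p = 0.0491). The call was close to the threshold and held in 1 of the 6 fits with an array left out: it was 0.00276 without RNAi replicate 1 and up to 0.203 without any 1 of the others, which was the value without control replicate 2. It also did not pass without the trend in eBayes (0.125) or without the filter on dim probe sets (0.0884). The SAM method, named in the submitters' text, did not call this probe set.

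The other CESA4 probe set (Os.18724.1.S1_a_at), whose name marks it as reading several transcripts of the gene, gave a smaller difference. Its signals were 134, 125 and 94.6 in the controls and 97.7, 299 and 266 in RNAi replicates 1 to 3. RNAi replicate 1 lay within the control range here, and only the other RNAi arrays were above it. The log2 ratio was 0.71 ± 0.38 (adjusted p = 0.414, and 0.038 without RNAi replicate 1). The log2 signal of this probe set minus that of the first ran from -0.54 to -0.17 in the controls and from -1.38 to -0.98 in the RNAi arrays, so the probe sets disagreed on the size of the difference, with no overlap between the groups.

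CESA7 and CESA9, the other secondary wall isoforms, had higher values in every RNAi array than in any control, and neither was called. CESA7 (Os.3206.1.S1_at) had 104, 52.7 and 82.7 in the controls and 126, 193 and 188 in the RNAi arrays. Its log2 ratio was 0.97 ± 0.29 (adjusted p = 0.148, and 0.0914 to 0.41 over the leave-one-out fits). CESA9 (Os.10206.1.S1_at) was too dim to be tested, with 15.4, 20.3 and 22.1 in the controls and 28, 39.3 and 38.7 in the RNAi arrays. Its log2 ratio of 0.54 depended on the 16 added to each signal, being 0.84 with 1 added and 0.25 with 64 added. In a fit with no filter, where 0.689% of all probe sets passed, its adjusted p was 0.662. In all 4 probe sets of CESA4, CESA7 and CESA9, replicate 1 was the lowest of the RNAi arrays. This was not particular to them, as it also held for both CESA3 probe sets, the brighter CESA1 probe set and CESA8. It did not hold for the dimmer CESA1 probe set, and the share over all probe sets was not counted.

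**Figure D1:**
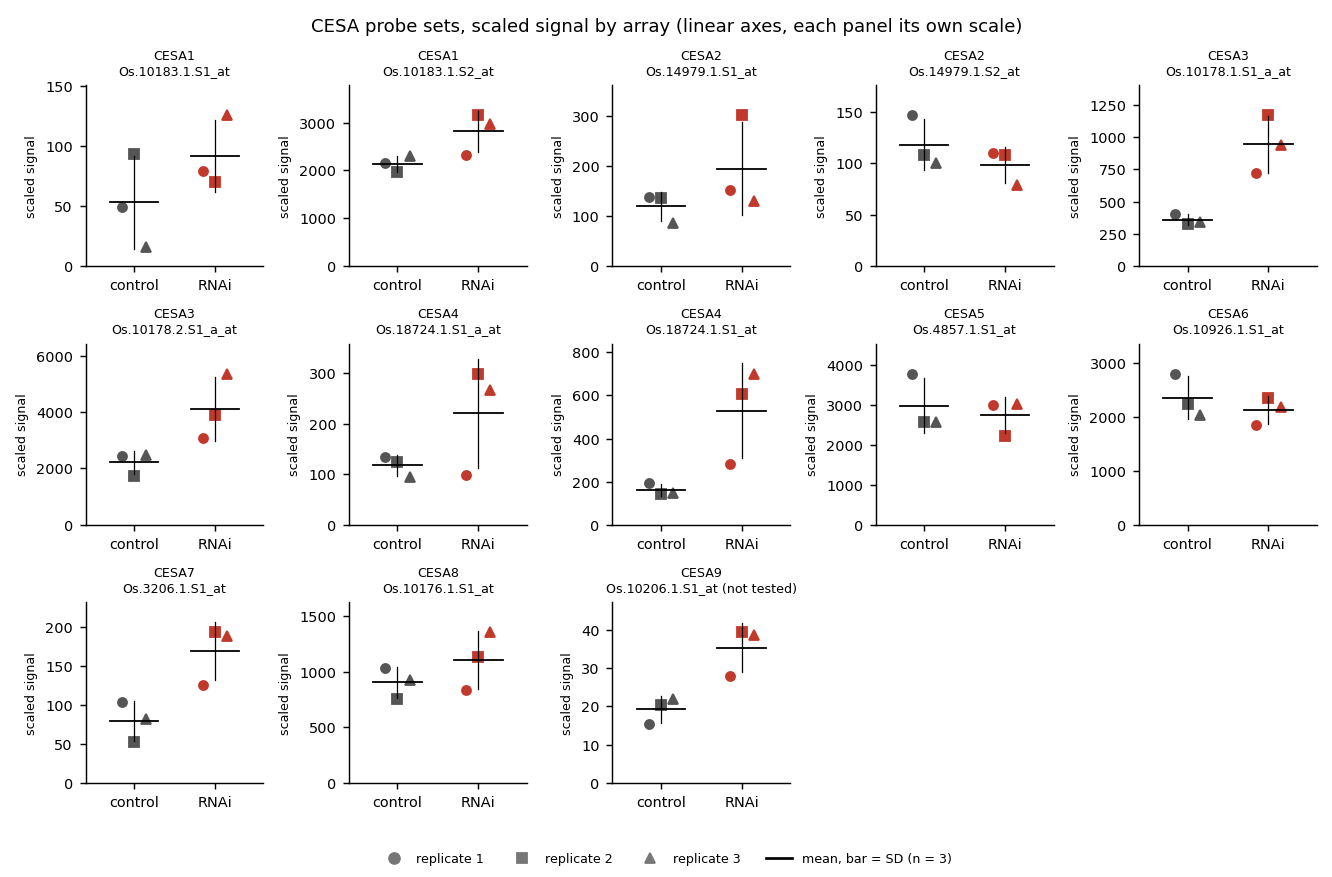
Scaled signal (linear axes from 0, each panel on its own scale) of the 13 CESA probe sets on each array, with controls in grey and RNAi arrays in red, symbols for replicate numbers, and the mean and SD of each group (n = 3). The RNAi points lie above all control points for 1 probe set of CESA1, both of CESA3, 1 of CESA4, and those of CESA7 and CESA9, while CESA5 and CESA6 overlap.

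Among the primary wall isoforms, CESA3 had the only call. The called probe set had signals of 406, 330 and 344 in the controls and 724, 1168 and 935 in the RNAi arrays. The groups were well apart, the lowest RNAi value being far above the highest control. The means were 360 ± 40.6 and 942 ± 222, a log2 ratio of 1.33 ± 0.2 (adjusted p = 0.0109). It passed in 5 of the 6 leave-one-out fits and reached 0.0687 without control replicate 2. The second CESA3 probe set (Os.10178.2.S1_a_at), the brighter one, had 2449, 1737 and 2461 in the controls and 3089, 3882 and 5360 in the RNAi arrays. These groups did not overlap either, and the log2 ratio of 0.87 ± 0.21 did not pass (adjusted p = 0.0855, and 0.0278 without RNAi replicate 1). Both names mark the probe sets as reading several transcripts of CESA3.

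CESA1 and CESA8, which act with CESA3 in the primary wall, differed less. The brighter CESA1 probe set (Os.10183.1.S2_at) had 2153, 1959 and 2295 in the controls and 2322, 3152 and 2971 in the RNAi arrays. The lowest RNAi value was just above the highest control, and the log2 ratio was 0.39 ± 0.14 (95% interval 0.06 to 0.71, adjusted p = 0.236). The dimmer CESA1 probe set (Os.10183.1.S1_at) had 49.4, 93.4 and 16.3 in the controls and 79.3, 70.4 and 126 in the RNAi arrays, with overlapping groups and a log2 ratio of 0.78 ± 0.45 (adjusted p = 0.451). CESA8 (Os.10176.1.S1_at) had 1033, 755 and 925 in the controls and 834, 1137 and 1355 in the RNAi arrays. Its groups overlapped and its log2 ratio was 0.27 ± 0.2 (95% interval -0.18 to 0.73, adjusted p = 0.557).

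The remaining cellulose synthases, CESA2, CESA5 and CESA6, did not pass and mostly had lower means in the RNAi arrays. CESA5 (Os.4857.1.S1_at) had 3788, 2583 and 2585 in the controls and 3013, 2239 and 3036 in the RNAi arrays, a log2 ratio of -0.1 (95% interval -0.52 to 0.32, adjusted p = 0.833). CESA6 (Os.10926.1.S1_at) had 2802, 2235 and 2038 in the controls and 1856, 2354 and 2183 in the RNAi arrays, a log2 ratio of -0.14 (95% interval -0.49 to 0.21, adjusted p = 0.707). The groups of both genes overlapped, and their intervals leave out a rise of the size seen for CESA3. The 2 probe sets of CESA2 went opposite ways: Os.14979.1.S1_at had 138, 136 and 86 in the controls and 153, 302 and 131 in the RNAi arrays (log2 ratio 0.58, adjusted p = 0.444), and Os.14979.1.S2_at had 147, 108 and 99.9 against 110, 108 and 78.6 (-0.22, adjusted p = 0.719).

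Set side by side with 1 probe set a gene, that of highest mean signal, the secondary wall genes had a median log2 ratio of 0.97 (range 0.54 to 1.54) and the primary wall genes one of 0.39 (0.27 to 0.87). With the median of each gene's tested probe sets in place of the brightest, they were 0.97 and 0.58. CESA9, which has no tested probe set, was kept in with its untested one. The secondary wall median is the value of CESA7, which has 1 probe set, so it is no check on the choice for CESA4. The median over CESA2, CESA5 and CESA6 was -0.1, and that over all tested probe sets was 0.03. The mean departure of CESA4, CESA7 and CESA9 from their control means was 0.57, 1.22 and 1.27 on the log2 scale in RNAi replicates 1, 2 and 3. For CESA1, CESA3 and CESA8 it was 0.17, 0.57 and 0.78. The departure of the secondary wall genes minus that of the primary wall genes was thus 0.39, 0.64 and 0.48 in the RNAi arrays. In the controls it was -0.08 to 0.05, where it is centred by construction, since the departures are taken from the control means. For CESA4 the brighter probe set has the larger ratio (1.54 against 0.71) and for CESA3 the smaller (0.87 against 1.33). With the dimmer probe sets CESA4 had 0.71, beside 0.97 for CESA7 and 0.54 for CESA9. On that choice CESA1 and CESA3 had 0.78 and 1.33, beside 0.27 for CESA8. Both the size of this contrast and which class is higher therefore depend on the probe set used, and other choices were not tried by array. Each class rests on 3 genes chosen with earlier results known, and the difference between the classes was not tested.

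**Figure D2:**
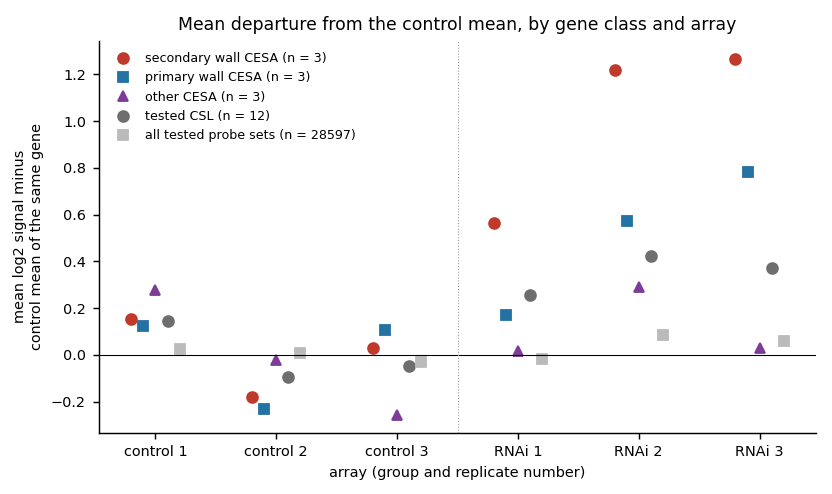
Mean log2 signal of each gene class minus the control mean of the same genes (y axis), on each of the 6 arrays (x axis), with 1 probe set a gene. The probe set used for a gene is that of highest mean signal. The secondary wall CESA genes lie at 0.57 to 1.27 in the RNAi arrays and the primary wall CESA genes at 0.17 to 0.78, while the mean of all tested probe sets stays between -0.03 and 0.08.

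Of the cellulose synthase-like genes, 20 had probe sets and none was called with limma in either direction. Over all tested probe sets 2.1% were called. The CSL genes had 24 probe sets, of which 14, for 12 genes, were bright enough to be tested, and 10 were not. With 1 probe set a gene, 10 of the 12 tested genes had a log2 ratio above 0, as did 54.3% of all tested probe sets, and their median was 0.4. For 4 of the 12 all RNAi values lay above all control values, and for none below. Of all tested probe sets the groups did not overlap at 22.4%, upward at 12.5% and downward at 9.88%. At an unadjusted p of 0.05, 7 of the 14 tested CSL probe sets passed, against 15.6% of all tested probe sets.

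CSLE2 came closest to a call. Its dimmest probe set (Os.20406.4.S1_at) had 120, 81.6 and 78.3 in the controls and 240, 250 and 181 in the RNAi arrays. The lowest RNAi value was well above the highest control, with a log2 ratio of 1.14 ± 0.24 (adjusted p = 0.0543, and 0.0489 with 64 added to the signals). The SAM method, which the submitters' text names, called this probe set as higher. A second one (Os.20406.3.S1_x_at), with probes that may also read other sequences, had 206, 204 and 209 in the controls and 267, 397 and 402 in the RNAi arrays (log2 ratio 0.72 ± 0.21, adjusted p = 0.131, and 0.0337 without RNAi replicate 1). The brightest (Os.20406.1.S1_a_at), which stands for the gene elsewhere here, had 424, 355 and 299 against 430, 465 and 383, with overlapping groups and a log2 ratio of 0.25 (adjusted p = 0.563). The probe sets of CSLE2 thus agreed in direction and not in size. CSLE1, the other member of that class with a probe set, had 2889, 3382 and 4039 against 3022, 3334 and 2767, a log2 ratio of -0.17 (95% interval -0.49 to 0.16).

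CSLC genes, of the xyloglucan class, had 4 tested members. CSLC9 had 408, 388 and 281 in the controls and 779, 624 and 492 in the RNAi arrays, with groups that did not overlap and a log2 ratio of 0.78 ± 0.22 (adjusted p = 0.123). CSLC2 had 449, 337 and 423 against 520, 615 and 787, also without overlap (0.64 ± 0.2, adjusted p = 0.161). In RNAi replicate 1 CSLC9 was at its highest and CSLC2 at its lowest of the RNAi arrays, so these genes did not share their order over the arrays. CSLC1 had 986, 795 and 681 against 969, 1043 and 1077, a log2 ratio of 0.34 (95% interval -0.03 to 0.7). CSLC7 overlapped fully, with a log2 ratio of 0.07 (95% interval -0.5 to 0.64) on a probe set that may read other sequences. CSLC3 was too dim to be tested, at 3.11 to 44.9 over the 6 arrays.

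In the CSLA class, of mannan synthesis, CSLA5 had 126, 123 and 146 in the controls and 237, 169 and 203 in the RNAi arrays, without overlap (log2 ratio 0.56 ± 0.21, adjusted p = 0.247). CSLA7 had 89, 100 and 166 against 121, 226 and 284, with overlap (0.72 ± 0.34, adjusted p = 0.353). CSLA1 varied more within the groups than between them, with 348, 185 and 269 against 149, 293 and 442 (log2 ratio 0.05, 95% interval -0.79 to 0.9). The gene table gives CSLA9 as a second synonym of this gene. The gene called CSLA9 here, the other one with that name, was not tested, with 61.5 in RNAi replicate 1 and 2.91 to 30.7 on the other arrays.

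For mixed-linkage glucan, CSLF6 encodes the main synthase in rice and CSLH1 a second type of enzyme. The bright CSLF6 probe set (Os.9709.2.S1_at) had 1216, 958 and 698 in the controls and 1155, 1681 and 1462 in the RNAi arrays. RNAi replicate 1 lay within the control range, and the log2 ratio was 0.59 ± 0.22 (adjusted p = 0.236). Its other probe sets were too dim to be tested, at 2.46 to 32.7 for Os.56304.1.S1_at, where the RNAi values were all higher, and at 20.2 to 47 for Os.9709.1.A1_at, where the groups overlapped. CSLH1 had closely spaced controls of 1461, 1486 and 1428 and RNAi values of 1730, 2771 and 1716. All RNAi values were higher, with replicate 2 far above the others (log2 ratio 0.47 ± 0.19, adjusted p = 0.274). Without RNAi replicate 2 the ratio was 0.24. CSLF9, CSLF8, CSLF2, CSLF4 and CSLF3 follow one another in the gene table (assembly ASM3414082v1) with at most 1 gene between neighbours, and of these CSLF8 and CSLF2, the only ones with a probe set, were dim on all arrays, at 1.65 to 37.8. CSLF7 was also not tested, at 9.7 to 45.3.

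**Figure D3:**
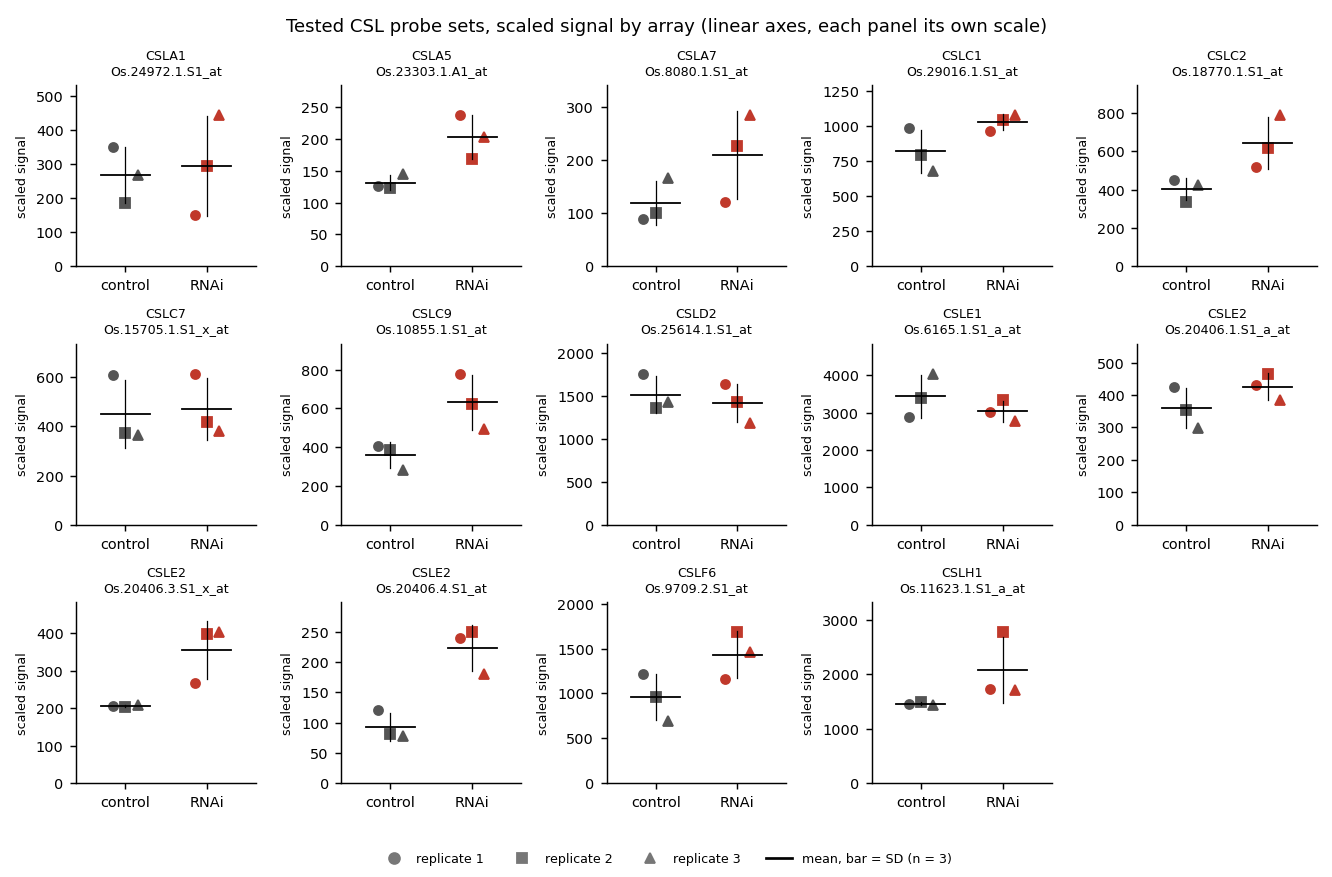
Scaled signal (linear axes from 0, each panel on its own scale) of the 14 tested CSL probe sets on each array, with controls in grey and RNAi arrays in red, symbols for replicate numbers, and the mean and SD of each group (n = 3). All RNAi points lie above all control points for CSLA5, CSLC2, CSLC9, CSLH1 and the dimmer probe sets of CSLE2.

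In the CSLD class only CSLD2 was tested, and its groups overlapped, with 1756, 1355 and 1430 in the controls and 1634, 1430 and 1184 in the RNAi arrays (log2 ratio -0.1, 95% interval -0.47 to 0.27). CSLD5 was the member with lower values on all RNAi arrays. It had 93.8, 52.8 and 57.4 in the controls and 5.23, 24.7 and 23.2 in the RNAi arrays, too dim on average for the test. In a fit with no filter its log2 ratio was -1.34 and its adjusted p 0.297. CSLD1, which is needed for root hair growth in rice, and CSLD4, whose loss narrows rice leaves, were near the floor, at 2.71 to 39.3 and 6.12 to 42.9.

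Over all 37 member probe sets, 26 were tested, for 20 genes, and 11 were not, with signals of 1.65 to 93.8 on any array. Of the tested ones 21 had a log2 ratio above 0 and 5 below, where 54.3% of all tested probe sets were above 0. All RNAi values lay above all control values at 11 of the 26 tested and 2 of the 11 untested probe sets, and below them at 0 and 1. Over all tested probe sets these shares were 12.5% and 9.88%. These counts describe the probe sets that the filter on mean signal let through and are not evidence about the family as a whole. Without RNAi replicate 1, 5 member probe sets passed, both of CESA3, both of CESA4 and Os.20406.3.S1_x_at of CSLE2. In that fit 902 probe sets passed in all, in place of 601. Without control replicate 2, no member probe set passed and 233 did in all, so the count of members moved with that of the whole array.

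**Figure D4:**
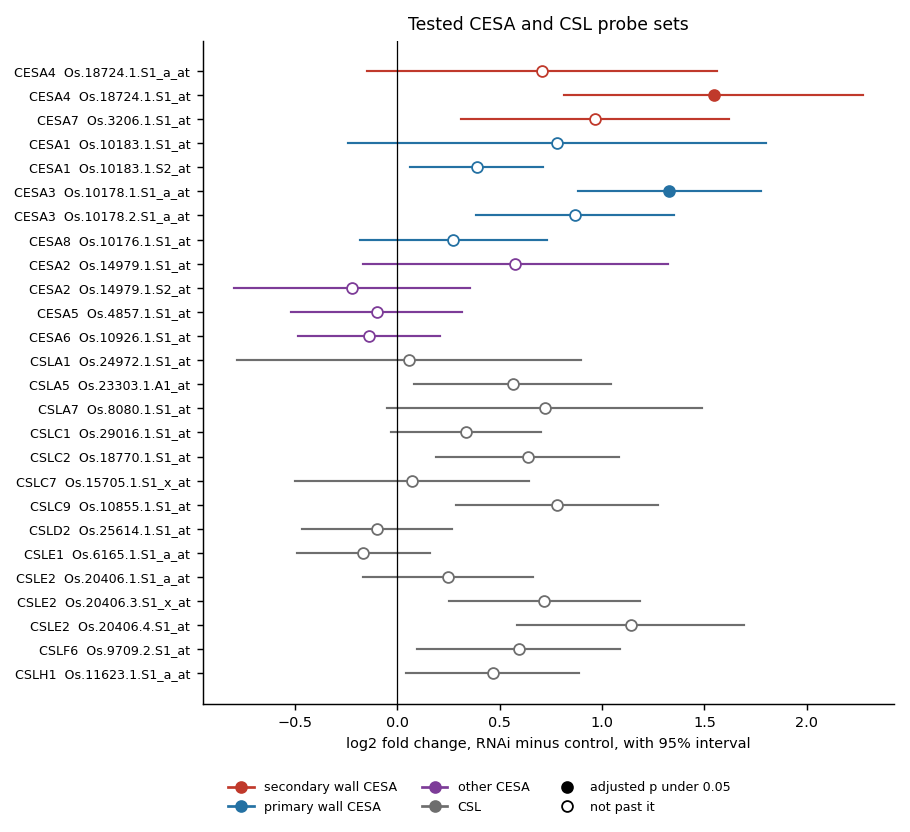
Log2 ratio (RNAi minus control) with its 95% interval for the 26 tested member probe sets, coloured by class and filled where limma's adjusted p was under 0.05. The filled points are 1 probe set of CESA4 at 1.54 and 1 of CESA3 at 1.33, and 21 of the 26 points lie above 0.

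Other genes of wall synthesis, matched by name, had 2 calls, which went opposite ways. Among 9 tested partners of cellulose synthesis, with 1 probe set a gene, 1 was higher, 1 was lower and 7 did not pass, beside 1.09% higher and 1.01% lower over all tested probe sets. Their median log2 ratio was 0.06. SUS1, a sucrose synthase, which cleaves sucrose to give UDP-glucose, rose on both of its probe sets. The brighter had 1362, 1213 and 1171 in the controls and 2305, 2350 and 1857 in the RNAi arrays, a log2 ratio of 0.79 ± 0.14 (adjusted p = 0.0233). The dimmer, with probes that may also read other sequences, had a log2 ratio of 0.88 ± 0.15 (adjusted p = 0.022). SAM called the dimmer probe set and not the brighter one. Each passed in 2 of the 6 leave-one-out fits, and without control replicate 2 the adjusted p was 0.128 and 0.124. Neither passed without the trend in eBayes (0.091 and 0.0628), and the dimmer one did not pass with the replicate block (0.0619). SUS2, SUS4, SUS5 and the brighter SUS6 probe set, of the same family, were at log2 ratios of -0.05, 0.06, 0.32 and 0.25 and did not pass. SUS3 was too dim to be tested, with 13.4, 8.56 and 20.6 in the controls and 32.2, 39.9 and 44 in the RNAi arrays, all higher. The dimmer SUS6 probe set, also not tested, was lower on all RNAi arrays.

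COBRA-like proteins are anchored at the cell surface and bear on how cellulose is laid down. BC1L9 of this family fell on both probe sets, the brighter one from 4937, 5128 and 5232 in the controls to 2647, 1303 and 1192 in the RNAi arrays (log2 ratio -1.66 ± 0.26, adjusted p = 0.0144). The brighter probe set passed in 2 of the 6 leave-one-out fits and the dimmer in 1, with values of 0.0791 and 0.135 without control replicate 2. Neither passed without the trend in eBayes (0.0754 and 0.0932). RNAi replicate 1 was the nearest to the controls, as it was for the mean departures of both the secondary and the primary wall CESA genes. Over the whole array 902 probe sets passed without this replicate, in place of 601. BC1, the brittle culm gene of the same family, which rice needs for a normal secondary wall, had 77.6, 19.7 and 4.64 against 59.8, 115 and 106. Its groups overlapped, its controls were widely spread, and it did not pass (log2 ratio 1.38 ± 0.53, adjusted p = 0.258). That ratio was 2.12 with 1 added to the signals, 0.74 with 64 added and 0.88 without control replicate 3.

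Xylan and lignin, which fill the secondary wall beside cellulose, had no called gene in their lists. Over all tested probe sets 2.1% passed, so lists of this size could hold no call at that share. Of 9 tested xylan genes 5 had a log2 ratio above 0 and 4 below, with a median of 0.11. GT43C, also named IRX9, which acts on the xylan backbone, had 89.8, 50.5 and 67.6 in the controls and 110, 137 and 193 in the RNAi arrays. Its groups did not overlap and it did not pass (log2 ratio 0.93 ± 0.29, adjusted p = 0.169). XAT2, a xylan arabinosyltransferase, went the other way, with 159, 195 and 212 against 158, 120 and 94.7 (-0.56 ± 0.24, adjusted p = 0.309). GT43A had a log2 ratio of 0.42 and IRX9L one of -0.34.

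Of 20 tested lignin and phenylpropanoid genes 9 had a log2 ratio above 0 and 11 below, with a median of -0.12. The smallest adjusted p was that of 4CL5, a 4-coumarate:CoA ligase, with a log2 ratio of -0.83 ± 0.22 (adjusted p = 0.105, and past the threshold in 1 leave-one-out fit). PAL06, a phenylalanine ammonia-lyase at the start of the pathway, had -1.24, CAD2, a cinnamyl alcohol dehydrogenase, -0.66 and HCT1, a hydroxycinnamoyl transferase, 0.4, and none of these passed. The list labelled glucan remodelling was matched by gene name, and its label does not state what each gene does. Its 2 tested genes, XXT1 and XTH8, had log2 ratios of -0.1 and 0. No gene matched the names listed for secondary wall transcription factors.

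**Figure D5:**
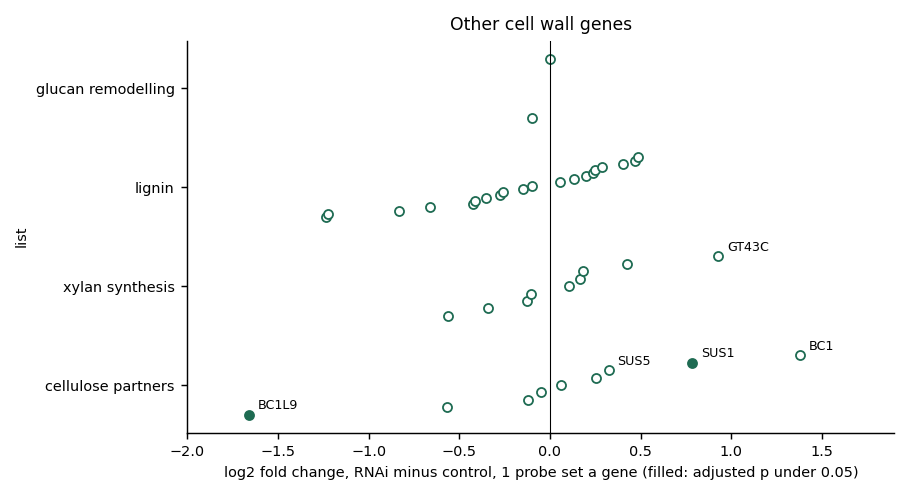
Log2 ratio (RNAi minus control) of the tested genes of 4 wall lists, 1 probe set a gene, ordered by value within each list (vertical spacing within a list has no meaning), filled where limma's adjusted p was under 0.05. The filled points are SUS1 at 0.79 and BC1L9 at -1.66, and the other genes of the lists lie on both sides of 0.

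Markers of dividing cells, a sign of growing tissue, were read beside the CESA values. The summed signal of 6 such genes was 798 to 825 in the controls and 538 to 822 in the RNAi arrays. Most of it came from PCNA, at 560, 623 and 605 in the controls and 330, 604 and 644 in RNAi replicates 1 to 3. The 4 tested genes all had log2 ratios below 0, and none passed. The highest ratio of each over the leave-one-out fits was above 0, at 0.03 to 0.08. CycB2;2 was too dim to be tested. At 1 of its probe sets it was higher on all RNAi arrays, with 10 to 24.3 against 1.24 to 8.22 in the controls. Of root markers with a probe set, Lsi2 was near the floor and IRT1 at 24.6 to 72.5, while Lsi1 had 1573 to 1794 in the controls and 842 to 1396 in the RNAi arrays (log2 ratio -0.55, adjusted p = 0.2). The summed signal of 4 pollen and seed genes was 1297 to 1467 in the controls and 1306 to 1442 in the RNAi arrays, nearly all of it from GLUA2. What part differences in tissue make-up had in the CESA and CSL values was not tested.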

How the data were processed

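The authors deposited a linear intensity for each probe set and array. GCOS 1.2 produced it, per the submitters' processing notes, and the sources used here do not give its summarisation or scaling. The authors' fluidics and scanner records were deposited too and hold other settings and no expression values. They were read only for the hybridization date entry and the fluidics module. Here each array was brought to a 2%-trimmed mean of 500, and the log2 of the signal plus 16 was used. From 57194 probe sets (control and reporter ones left out), the lower 50% by mean log2 signal were dropped, leaving 28597, whose lowest mean log2 was 5.7. The 3 RNAi arrays were set against the 3 controls with limma 3.58.1 (R 4.3.3), using a trend in eBayes, two-sided p-values and Benjamini-Hochberg adjustment over all tested probe sets. A log2 ratio, or log2 fold change, is RNAi minus control. What the p-values reflect is spread among these samples only, and the number of arrays limits the precision. The test was checked on simulated arrays.

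Probe sets were named through the platform annotation and the RefSeq gene table of ASM3414082v1, in which 22436 probe sets had 1 gene, 95 several and 34850 none listed. Members and lists were chosen with earlier results of these data known. Named were every CESA probe set, every CSL gene, and from each wall list the called genes and up to 4 of smallest adjusted p. SUS2, SUS3, SUS4, SUS6, the further CSLE2 and CSLF6 probe sets and marker genes were picked for naming once their values were known. The starch synthases SS1 and SS2 and a bHLH factor with the synonym BC1, which matched by symbol, were left out of the cellulose partners. Same-numbered arrays shared a fluidics module and did not deviate together (correlations of -0.045, 0.0084 and 0.0021 over tested probe sets). Alternatives were the scaling, pseudocount, filter, replicate block, trend, SAM with 20 permutations, probe sets reading several genes, the probe set per gene and each array left out.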

Additional observations from a re-analysis of the deposited data

How the results depend on the processing

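With the signals as deposited, where control replicate 3 is on a larger scale, the median of all tested probe sets was -0.52, 37 passed in place of 601 and 0 members did. The secondary wall CESA median was then 0.21, the primary wall one -0.25 and the CSL one -0.23, CESA4 had 0.79 and CESA9 -0.031; these medians lay above that of all probe sets. Without the filter 394 probe sets passed and 1 member, and without the trend 303 and 1. With 1 added, 1 member passed and CESA4 had 1.63 (adjusted p = 0.0551), while CESA9 had 0.84, and 0.25 with 64 added. CESA4 kept 1.54 and did not pass without the filter, without the trend or with the replicate block (adjusted p = 0.0884, 0.125 and 0.0988). The replicate number as a block left 424 probe sets and 1 member, CESA3. Same-numbered control and RNAi arrays shared a fluidics module, and the sample titles give no pairing of the plants. Leaving out 1 array gave 233 to 902 probe sets, 0 to 5 members, 1.3 to 1.94 for CESA4, 0.75 to 1.15 for the secondary wall median and 0.28 to 0.47 for the CSL median. The CSL median was 0.51 with the median of each gene's tested probe sets. SAM called 540 probe sets, 340 up, and as members CESA3 and CSLE2. The cause of these changes was not tested. Share of higher calls was 51.9%, but 61.4% without the trend, 61.7% and 70.8% without control replicates 1 and 2, and 64.9% as deposited. Signals near the floor limit CESA9, CSLD1, CSLD4, CSLD5, CSLF2, CSLF7 and CSLF8.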
